A study of Rattus norvegicus with 6 samples.

Results

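This account concerns the ADAMTS proteases and the ADAMTS-like genes in rat kidney. The members were the 10 genes Adamts1, Adamts4, Adamts5, Adamts7, Adamts9, Adamts10, Adamts15, Adamts16, Adamtsl2 and Adamtsl4, out of 14217 named genes on the array. They were taken by name: each probe set that the array annotation assigned to exactly 1 of these symbols was a member, which gave 13 of 31042 probe sets. For Adamts5, Adamts9 and Adamts10, which had 2 probe sets each, the one with the higher mean signal over the 6 arrays gave the main value and the other served as a check. Of the 10 main probe sets, 8 lay above the median signal of all probe sets, 169.9, and those of Adamts16 and Adamts4 lay below it.

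Kidney RNA of adult male rats was hybridised to 1-colour Affymetrix arrays, 1 array for each of 6 rats. The S group comprised 3 inbred Dahl salt-sensitive (SS/Jr) rats, the parental strain, which becomes hypertensive. The congenic group comprised 3 S.LEW(D1MCO4x1x3Bx1) rats, in which a Lewis rat segment of chromosome 1 replaces that of the S strain. All alleles outside that segment are meant to be shared by both groups. A congenic segment also carries genes other than the one under study. For diet, exact age and blood pressure the labels give no entry. The title of the series places the arrays in a search for Adamts16 variants linked to inherited hypertension. In the RefSeq gene table of assembly GRCr8, Adamts16 was the 1 member on chromosome 1, and the other 9 lay on chromosomes 2, 3, 4, 7, 8, 11 and 13.

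ADAMTS proteases are secreted zinc metalloproteases that carry a disintegrin-like domain and thrombospondin type repeats, by which they bind the matrix they cut. They are made as inactive precursors, lose a propeptide to furin-like convertases, and are held in check by tissue inhibitors of metalloproteases, above all Timp3. One branch cuts the proteoglycans versican and aggrecan, another works on fibrillin microfibrils, and the ADAMTS-like proteins keep the repeats but have no protease domain. In kidney these proteins act on the interstitial, vascular and glomerular matrix.

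The promoters of 4 members are printed: Adamtsl4, Adamts10 and Adamts4, whose congenic values all lay below the S values, and Adamts7, the 1 member with a log2 difference above 0. Size of the difference was not the rule: that of Adamtsl4 (-0.17) was smaller than that of Adamts1 (-0.21), whose window is not printed. Each is the RefSeq window of 250 bases before to 50 bases after the start on GRCr8, 5′ to 3′ on the gene's strand. Capitals mark TATAAA (the TATA box), CCAAT (the CCAAT box), GGGCGG (the GC box) and TGANTCA (the AP-1 motif), searched on both strands. No 2 matches overlapped in these 4 windows. They lie at chr2:185935747-185936046 on the minus strand, chr7:15033685-15033984, chr13:86202761-86203060 and chr8:99584279-99584578, the last 3 on the plus strand.
Adamtsl4: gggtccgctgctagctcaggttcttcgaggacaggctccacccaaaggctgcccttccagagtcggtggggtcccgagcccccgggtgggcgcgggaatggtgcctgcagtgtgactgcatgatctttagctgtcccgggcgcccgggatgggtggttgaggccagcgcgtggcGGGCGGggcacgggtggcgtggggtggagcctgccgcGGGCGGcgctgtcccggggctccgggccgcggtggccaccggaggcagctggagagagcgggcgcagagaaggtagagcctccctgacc
Adamts10: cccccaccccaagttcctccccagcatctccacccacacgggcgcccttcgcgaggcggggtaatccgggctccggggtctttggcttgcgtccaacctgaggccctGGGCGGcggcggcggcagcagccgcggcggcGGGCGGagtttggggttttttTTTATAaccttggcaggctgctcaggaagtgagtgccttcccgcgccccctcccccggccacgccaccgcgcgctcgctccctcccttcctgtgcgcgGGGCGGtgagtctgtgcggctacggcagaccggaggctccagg
Adamts4: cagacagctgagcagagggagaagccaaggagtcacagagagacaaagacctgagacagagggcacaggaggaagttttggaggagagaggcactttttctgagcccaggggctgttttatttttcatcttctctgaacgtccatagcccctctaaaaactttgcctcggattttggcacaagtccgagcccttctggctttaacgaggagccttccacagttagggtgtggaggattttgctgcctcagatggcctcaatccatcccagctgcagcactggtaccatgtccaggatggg
Adamts7: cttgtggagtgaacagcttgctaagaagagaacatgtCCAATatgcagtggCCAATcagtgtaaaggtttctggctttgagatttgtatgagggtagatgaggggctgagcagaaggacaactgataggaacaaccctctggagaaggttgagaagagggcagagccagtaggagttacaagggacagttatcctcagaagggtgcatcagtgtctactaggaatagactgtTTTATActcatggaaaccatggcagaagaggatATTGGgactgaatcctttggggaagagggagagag

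The Adamtsl4 window held 2 GC boxes and no other match, and the Adamts10 window held 3 GC boxes and 1 TATA box. The Adamts4 window held none of the 4 motifs. The Adamts7 window held 3 CCAAT boxes and 1 TATA box. GC content was 72.3% in Adamtsl4 and 71% in Adamts10, against 52.3% in Adamts4 and 46.7% in Adamts7, where the median of 27457 windows was 52.3%. Adamts7 had 0 CpG dinucleotides and Adamts10 had 31. The table held windows for 7 members, and the windows of Adamts5, Adamts15 and Adamts16 were not analysed here. Of these 7 windows, 5 held a GC box, against 34.9% of all windows, 4 a TATA box (14.3%), 3 a CCAAT box (37.7%) and 0 an AP-1 motif (7.33%). A match describes the letters and shows neither binding nor use, and the arrays carry no promoter measurement.

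The deposited arrays had been scaled to a shared trimmed mean of 500.2, so their overall levels were alike by construction. Median array signals lay between 162 and 178, and the 3' to 5' signal ratios of 3 control genes, a sign of RNA integrity, overlapped between the strains (beta-actin, 1.99 to 2.30 in S and 1.94 to 2.06 in congenic kidneys). The defining kidney markers were high: the 7 measured were all above the median signal, among them Umod, Slc34a1 and Aqp2. In the limma fit of all 31042 probe sets, 0 passed adjusted p 0.05 (0.0%), the smallest adjusted p was 0.27, and 2462 (7.93%) had an unadjusted p below 0.05, of which 46.1% were higher in congenic kidneys. With arrays centred on their medians that share was 73.7%, and the median log2 difference of the members went from -0.17 to -0.10. Whole tissue was measured, so fewer cells of a type and less RNA per cell cannot be told apart.

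The study's own gene, Adamts16, gave one of the weakest and most scattered signals of the 10 members. Its single probe set read 147, 92.4 and 125 in S rats 1 to 3 and 43.5, 121 and 226 in congenic rats 1 to 3. The lowest and the highest of the 6 values were both congenic, and the strains overlapped. Congenic minus S, its log2 difference was -0.17 (standard error 0.64, 95% interval -1.76 to 1.42, limma adjusted p = 0.966). A change of 2-fold in either direction lies inside that interval. The sign turned to 0.47 without congenic rat 1 and to 0.02 when the leading number in the array titles, under or over 10, entered the fit as a block.

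Among the proteases that cut proteoglycans, Adamts1, a versican- and aggrecan-cleaving protease, had the highest signal. It read 594, 659 and 664 in S rats and 569, 479.7 and 614 in congenic rats. Congenic rat 3 lay above S rat 1, so the strains overlapped, while congenic rat 2 lay below all other rats. The means were 639 ± 39.2 (SD, n = 3) in S and 554 ± 68.5 (SD, n = 3) in congenic kidneys. Adamts1 thus had a log2 difference of -0.21 (standard error 0.11, 95% interval -0.49 to 0.06, limma adjusted p = 0.67).

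Adamts5, regarded as the main aggrecanase of mouse cartilage, is the immediate neighbour of Adamts1 on chromosome 11, with 0 protein-coding genes between them in GRCr8. It read 460.1, 498 and 485 in S rats and 313, 337 and 463 in congenic rats. The 2 lower congenic values stood well under the S rats, whereas congenic rat 3 fell between S rats 1 and 3. For Adamts5 the log2 difference was -0.39 (standard error 0.16, 95% interval -0.79 to 0.01, limma adjusted p = 0.633). The other Adamts5 probe set read 449.6, 559.7 and 326 in S rats and 417, 289 and 363 in congenic rats, a log2 difference of -0.30 with a standard error of 0.24. Both probe sets had a lower congenic mean, but the second did not repeat the low value of congenic rat 1, which there was the highest of the 3 congenic values.

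Adamts4, an inducible aggrecanase, had the lowest mean signal of the 10 and the widest separation between the strains. It read 144, 96.1 and 156 in S rats and 41.9, 61.8 and 77.4 in congenic rats. The highest congenic value was below the lowest S value, and all 6 values were below the median signal of the array. The means were 132 ± 31.7 (SD, n = 3) and 60.4 ± 17.8 (SD, n = 3), a fold of 2.21 higher in S kidneys on the log2 scale of the fit. Its log2 difference was -1.14 (standard error 0.36, 95% interval -2.04 to -0.24), and the limma adjusted p was 0.589. The 2-sided exact permutation test gave p = 0.1, the smallest value that 3 against 3 rats allow, as it also did for Adamts10 and Adamtsl4. At such signals no detection call was available to separate the probe set from background.

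Adamts9, which cuts versican and is needed in the developing vasculature, and Adamts15, another versican-cleaving protease, differed little. Adamts9 read 323, 332 and 324 in S rats and 329, 318 and 306 in congenic rats. This was the steadiest member, with a coefficient of variation of 2.83% over the 6 rats, and its 95% interval of the log2 difference ran from -0.24 to 0.16 around -0.04. Its other probe set was dimmer and scattered, at 193, 111 and 81.5 in S rats and 147, 75.1 and 105 in congenic rats, with a log2 difference of -0.20 and a standard error of 0.43. Adamts15 read 223, 218 and 175 in S rats and 174, 213 and 205 in congenic rats, with a log2 difference of -0.05 and a standard error of 0.17. After quantile normalisation, median centring or cyclic loess the differences of Adamts9 and Adamts15 were above 0.

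Adamts10 takes part in the fibrillin microfibrils of the matrix. Its main probe set read 314, 386 and 366 in S rats and 221, 304 and 310.3 in congenic rats, so that all 3 congenic values lay below all 3 S values, congenic rat 3 only just. This probe set had a log2 difference of -0.36 (standard error 0.17, 95% interval -0.79 to 0.07, limma adjusted p = 0.648). The other Adamts10 probe set read 225, 197 and 182 in S rats and 150.1, 136 and 121 in congenic rats. There the gap between the strains was wide, and the order of the congenic rats was turned round. The second probe set had a log2 difference of -0.57 (standard error 0.18, 95% interval -1.01 to -0.13, limma adjusted p = 0.583). Adamts10 was the 1 member of the 3 with a second probe set in which both probe sets separated the strains.

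Adamts7, which degrades cartilage oligomeric matrix protein and is known from vascular smooth muscle, was the 1 member with a log2 difference above 0. It read 425, 265 and 262 in S rats and 299.6, 332 and 327 in congenic rats. S rat 1 had the highest value and the other 2 S rats the lowest, with the congenic rats between them. Over all rats the log2 difference was 0.05 (standard error 0.21, 95% interval -0.48 to 0.58, limma adjusted p = 0.974). Without S rat 1 it was 0.28, and without S rat 2, without S rat 3 or with the title number as a block it lay below 0, at -0.06, -0.07 and -0.06.

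Both ADAMTS-like genes lay above the median signal. Adamtsl4, a fibrillin-binding protein of microfibrils, read 711, 646 and 667 in S rats and 576, 602 and 617 in congenic rats. The strains did not overlap, and the spread within each was small, at 675 ± 32.9 (SD, n = 3) in S and 599 ± 20.9 (SD, n = 3) in congenic kidneys. The log2 difference of Adamtsl4 was small too, at -0.17 (standard error 0.06, 95% interval -0.33 to -0.02, limma adjusted p = 0.613), a fold of 1.13 higher in S. Its unadjusted limma p of 0.035 was 0.17 with the filter on low signals and 0.129 with the pseudocount, and it also missed 0.05 under all 3 scalings, where it ran from 0.0765 to 0.278. Adamtsl2, which binds latent TGF-beta binding protein, read 654, 571 and 580.0 in S rats and 423, 576 and 708 in congenic rats. Congenic rats held both the lowest and the highest value, and the log2 difference was -0.11 (standard error 0.20). Without congenic rat 1 it was 0.09.

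**Figure D1:**
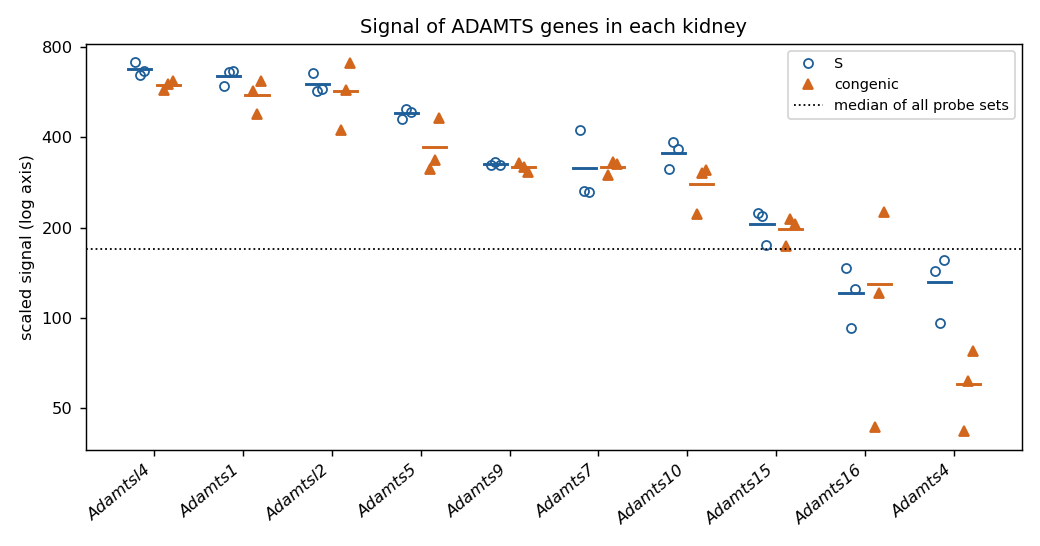
Scaled signal (log axis) of the main probe set of each gene in 3 S rats (open circles) and 3 congenic rats (triangles), with group means as short lines and the median of all probe sets, 169.9, as a dotted line. The strains separate for Adamtsl4, Adamts10 and Adamts4, and Adamts16 and Adamts4 lie below the dotted line in mean signal.

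Counted together, 9 of the 10 members had a lower congenic mean on the log2 scale, which was 7 of 10 after quantile normalisation, median centring or cyclic loess. Among all named genes, with 1 probe set each and none of these scalings, 49.9% did. The median log2 difference of the 10 was -0.17, against a median of 6.06e-04 over the named genes. Under those scalings the member median was -0.11, -0.10 and -0.12. The median over all probe sets, -0.02 as reported, then was -1.3e-15, 0.05 and 0.005. With 1 rat left out the member median moved most without S rat 1 (-0.09), congenic rat 1 (-0.10) and congenic rat 3 (-0.29). The congenic values lay all below the S values for 3 of 10 members, where 6.87% of named genes did so, and all above for 0 of 10, where 7.74% did. An unadjusted p below 0.05 was reached by 2 of 10, Adamts4 and Adamtsl4, against 9.21% of named genes, and 0 of 10 passed adjusted p 0.05. The members were chosen with earlier results of these data known, so these counts are descriptions. For the 3 members with a second probe set, that one also had a lower congenic mean; for the other 7 the count rests on 1 probe set each.

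**Figure D2:**
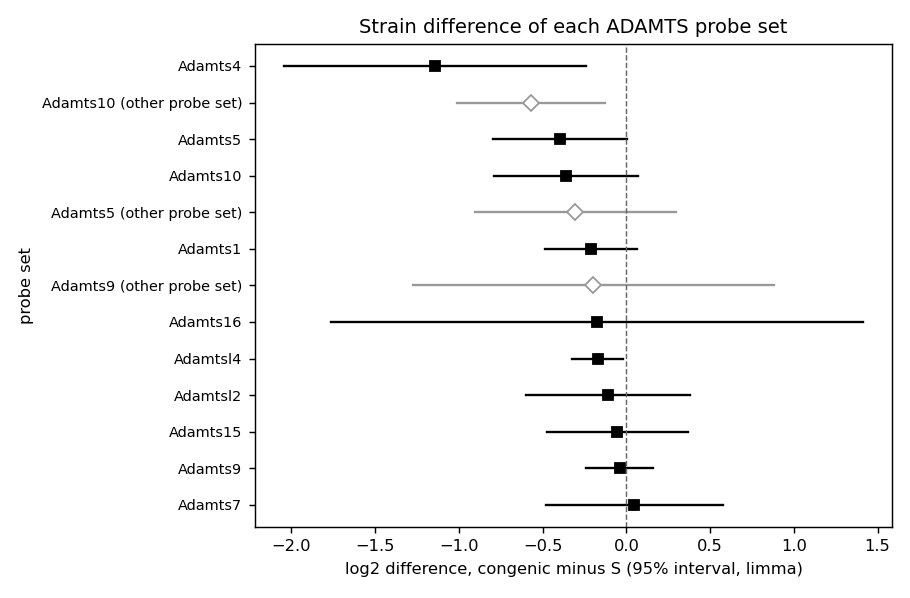
Log2 difference, congenic minus S, of all 13 member probe sets with 95% intervals from limma; filled squares are main probe sets and open diamonds the others. Of the 13, 12 lie left of 0 and 3 intervals exclude 0 (Adamts4, the other Adamts10 probe set and Adamtsl4); the main points of Adamts9 and Adamts15 move right of 0 under other scalings.

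The members' values in single rats were uneven. Congenic rat 1 gave the lowest value of the 6 rats for 7 of 10 members and exceeded a member's own mean for 1 of 10, Adamts9. Its median log2 deviation from the members' means was -0.31, while over all probe sets its median deviation was -0.01. Congenic rats 2 and 3 had member medians of -0.03 and 0.04, and S rats 1 to 3 had 0.16, 0.08 and 0.11. S rat 1 lay above the member's own mean for 10 of 10. Without congenic rat 1, 6 of 10 members had a lower congenic mean, 0 reached an unadjusted p below 0.05, and Adamts15 (0.04), Adamts16 (0.47) and Adamtsl2 (0.09) joined Adamts7 above 0. Without congenic rat 3, Adamts1, Adamts4, Adamts5 and Adamtsl4 reached an unadjusted p below 0.05. Without S rat 3, 0 members did. Over all 31042 probe sets, 2504, 2289 and 1961 reached that level without congenic rat 1, congenic rat 3 and S rat 3.

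**Figure D3:**
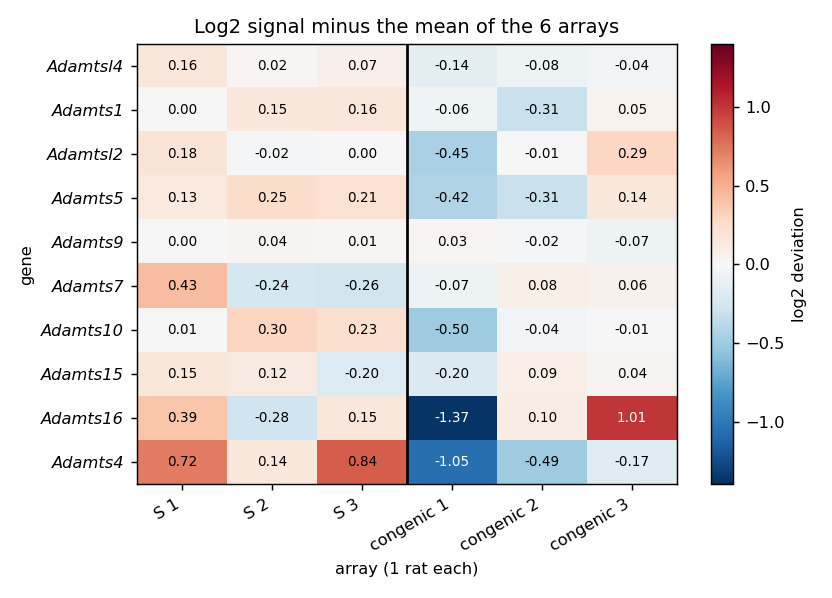
Log2 signal of each member in each rat minus that member's mean over the 6 arrays; colour and number give the deviation, and the vertical line parts S from congenic rats. The column of congenic rat 1 is lowest for 7 of 10 members, down to -1.37 for Adamts16 and -1.05 for Adamts4, whereas the row of Adamts9 stays between -0.07 and 0.04.

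Ranked by mean signal over the 6 rats, the order was Adamtsl4 (637), Adamts1 (597), Adamtsl2 (585), Adamts5 (426), Adamts9 (322), Adamts7 (318), Adamts10 (317), Adamts15 (201), Adamts16 (126) and Adamts4 (96.2). Probe sets differ in how strongly they bind their target, so this is an order of signals and not of transcript numbers. Each of the 9 neighbouring pairs had overlapping ranges over the 6 rats. Rat by rat, Adamtsl2 exceeded Adamts5 and Adamts10 exceeded Adamts15 in 6 of 6 rats, whereas Adamts1 and Adamtsl2, and Adamts9 and Adamts7, each changed places in 3 of 6. Adamtsl4 was first and Adamts5 in place 4 in both strains, Adamts10 was in place 5 in S and 7 in congenic kidneys, and Adamts4 was in place 9 in S and 10 in congenic kidneys. The coefficient of variation was 7.60% for Adamtsl4 and between 10.7% and 18.8% for 6 further members, but 47.3% for Adamts4 and 48.1% for Adamts16, the pair below the median signal.

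Of 16 other family genes fixed as a list, 7 had a named probe set, 5 of them below the median signal. None passed the adjusted threshold (0 of 7), 5 of 7 had a lower congenic mean (4 to 6 of 7 over the alternatives) and the strains overlapped for all 7. Among named genes, the congenic values lay all below the S values for 6.87% and all above for 7.74%. Adamts8, a protease that is the immediate neighbour of Adamts15 on chromosome 8 with 0 protein-coding genes between them, read 78.3, 78.0 and 86.1 in S rats and 87.7, 52.2 and 37.7 in congenic rats. It had a log2 difference of -0.54 (standard error 0.39), beside -0.05 for Adamts15. Adamts12, the closest relative of Adamts7, read 176, 224 and 258 in S rats and 161, 217 and 159 in congenic rats, a log2 difference of -0.29 with a standard error of 0.22. In each of these 4 genes the rats of both strains overlapped.

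Genes that encode proteins cut by ADAMTS proteases went both ways. All 18 listed were measured, 0 passed the adjusted threshold, and 10 had a lower congenic mean, which was 6 after quantile normalisation and 5 with median centring. Their median log2 difference was -0.02, but 0.04 after quantile normalisation, 0.05 with median centring and 0.04 after cyclic loess. With median centring the median over all probe sets was 0.05 as well. The proteoglycan gene Bcan read 19.6, 46.9 and 46.7 in S rats and 68.4, 85.2 and 165 in congenic rats, all 6 below the median signal, with a log2 difference of 1.49 and a standard error of 0.54. Vwf, the clotting factor cut by Adamts13, read 209, 308 and 305 in S rats and 361, 373 and 544 in congenic rats. The log2 difference of Vwf was 0.63 (standard error 0.24). Both were higher in 3 of 3 congenic rats than in any S rat, and neither passed (limma adjusted p = 0.611 and 0.613). Of the 18, 3 had all congenic values above the S values and 1 had all below, against 7.74% and 6.87% of named genes. Vcan, the versican substrate of the proteoglycan branch, had -0.05 with a standard error of 0.25, and this gene and Acan are named after their values were seen; Acan had -0.01 with a standard error of 0.51.

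Fibrillin microfibril genes, the setting of Adamts10 and Adamtsl4, divided evenly, with 7 of 14 lower in congenic kidneys (7 to 12 of 14 over the alternatives) and 0 past the adjusted threshold. The congenic values lay all below the S values for 3 of 14, namely Mfap4, Eln and Fbln5, and all above for 0 of 14, where 6.87% and 7.74% of named genes did so. Mfap4, a microfibril-associated glycoprotein, read 868, 751 and 789 in S rats and 644, 531 and 526 in congenic rats. The strains were well apart, with a log2 difference of -0.50 (standard error 0.11, limma adjusted p = 0.452). Eln, the elastin gene, read 644, 537 and 796 in S rats and 531, 487 and 359.9 in congenic rats, a log2 difference of -0.52 with a standard error of 0.21. The fibrillin gene Fbn1 itself, named after its values were seen, had 0.03 with a standard error of 0.17.

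Of the 7 genes for inhibitors, a cofactor and a clearance receptor, 6 had a lower congenic mean (3 of 7 with median centring) and 0 passed. Timp1, a general metalloprotease inhibitor, read 411, 452 and 407 in S rats and 394, 287 and 429.6 in congenic rats, with a log2 difference of -0.21 and a standard error of 0.17. Fbln1, a cofactor of Adamts1 in the cleavage of aggrecan, read 104, 49.8 and 30.7 in S rats and 87.7, 14.1 and 10.3 in congenic rats, where the spread within each strain exceeded the gap between them. Its log2 difference was -1.13 (standard error 0.91). All these signals were below the median, and the lowest was raised to the floor of 12.3 in the fit. Timp3, the inhibitor of Adamts4 and Adamts5, is named after its values were seen: it had a log2 difference of -0.02 (standard error 0.09) at signals of 13459 to 16201.

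Of the 7 maturation genes, 5 had a lower congenic mean (3 of 7 with median centring) and 0 passed. Furin, the convertase that removes ADAMTS propeptides, read 1492, 1399 and 1844 in S rats and 1353, 1346 and 1275 in congenic rats, with the strains apart and a log2 difference of -0.24 (standard error 0.11, limma adjusted p = 0.644). The related convertase gene Pcsk6 read 541, 459 and 419.6 in S rats and 379.7, 368 and 398 in congenic rats, also apart, with a log2 difference of -0.30 (standard error 0.11, limma adjusted p = 0.613). Pcsk7, named after its values were seen, was apart the other way, with a log2 difference of 0.27 (standard error 0.13). The congenic values thus lay all below the S values for 2 of 7 and all above for 1 of 7, against 6.87% and 7.74% of named genes.

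**Figure D4:**
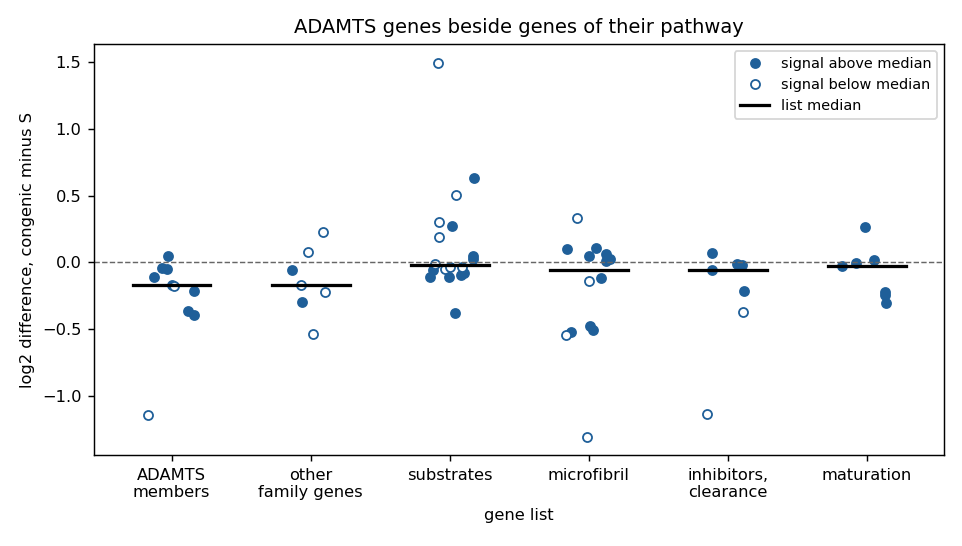
Log2 difference, congenic minus S, of each gene in the ADAMTS members and 5 pathway lists; filled points have a signal above the median, open points below it, and bars are list medians. The member median is -0.17 and the substrate median -0.02. With median centring the substrate median turns to 0.05, as does the median of all probe sets. There 7 of 10 members and 5 of 18 substrates stay below 0.

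Markers of the cells that make this matrix were set beside the members. Of 9 stromal and smooth muscle markers, 8 had a lower congenic mean (5 with median centring, 7 after quantile normalisation or cyclic loess), with a median log2 difference of -0.09 and 0 past the adjusted threshold. Their summed signal was 22114 to 25668 in S and 21287 to 23039 in congenic rats, so the strains overlapped, and 1 of 9, Cnn1, was below the median signal. Of 5 endothelial markers, 1 was lower, and their summed signal was 6626 to 7571 in S and 7039 to 7242 in congenic rats. Although the sums overlapped, 2 of 5 had all congenic values above the S values, as 7.74% of named genes did. These were Pecam1 (591 to 640 in S, 666 to 708 in congenic rats) and Vwf (209 to 308 and 361 to 544). All 3 genes listed as erythrocyte markers had a lower congenic mean, at log2 differences of -0.42 for Hbb, -0.55 for Alas2 and -0.08 for Slc4a1. Their median was -0.42, and the signals summed to 17153 to 23735 in S and 12036 to 18427 in congenic rats. Whether Slc4a1 reads red cells in whole kidney was not tested. Congenic rat 1, the lowest rat for 7 of 10 members, was also the lowest for Hbb (9587) and Alas2 (336). For Slc4a1 it was not: congenic rat 1 read 2113, the highest of the congenic rats, and congenic rat 3 was the lowest (1613). Of 5 adipocyte markers, 4 had a lower congenic mean (median log2 difference -0.11), with sums of 1760.0 to 2387 in S and 1394 to 2832 in congenic rats. There congenic rat 1 was the highest, for Fabp4 (1335), Plin1 (204) and Adipoq (217), the last 2 of which are below the median signal on average. For Cidec it lay below S rat 3 (1072 against 1168), and for Lep, far below the median signal, it was the lowest (3.84). Immune markers were lower for 3 of 6 (2 with median centring), with sums of 10698 to 12448 in S and 11193 to 12663 in congenic rats. Only Cd68, 1 of 6, separated the strains, at 151 to 234 in S and 240 to 307 in congenic rats. Of named genes, 7.74% had all congenic values above the S values and 6.87% all below. Adrenal markers were lower for 1 of 4, with sums of 598 to 706 and 537 to 749. Skeletal muscle markers were lower for 2 of 4, with sums of 154 to 208 and 161 to 224, and all 4 lay below the median signal. All these sums add raw signals, so the strongest probe sets weigh most. Over the 6 rats Cd74 read 9434 to 11524, Hbb 9587 to 21305 and Mrap 332 to 392. Overlap of the immune, erythrocyte and adrenal sums therefore describes mainly these genes. In none of these lists did a marker pass the adjusted threshold. An unadjusted limma p below 0.05 was reached by 2 of 5 endothelial markers, Pecam1 and Vwf. It was also reached by 1 of 9 stromal and smooth muscle markers (Acta2, lower in congenic kidneys) and 1 of 6 immune markers (Cd68). Of named genes, 9.21% did so. Some readings lay under the floor of 12.3, among them Lep in congenic rat 1 (3.84) and Myh4 in S rat 2 (2.77). No detection call was available to separate such readings from background. The part of these markers in the member differences was not tested.

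The genes with the profile nearest to 2 members were picked by the smallest root mean square distance between log2 profiles centred over the 6 arrays, among 9334 named genes above the median signal. For Adamts16 these were Sema6c at 0.254, Miip at 0.363 and Me2 at 0.372, against a spread of Adamts16 itself of 0.725. Sema6c read 251, 197 and 173 in S rats and 85.2, 171 and 309 in congenic rats. As for Adamts16, congenic rat 1 was the lowest and congenic rat 3 the highest. For Adamtsl4, the member of highest signal, the nearest were Serpinh1, the collagen chaperone, at 0.0255, Tspan7 at 0.029 and Uqcrfs1 at 0.0356. Serpinh1 read 4932, 4446 and 4433 in S rats and 3937, 3984 and 4191 in congenic rats. Nearness is a description of 6 arrays after a search through many genes, with no test.

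**Figure D5:**
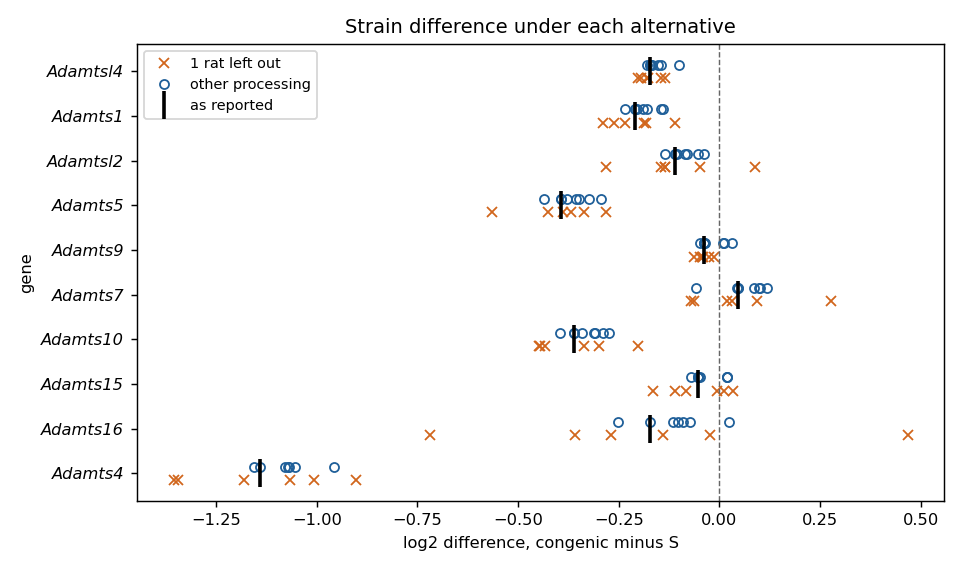
Log2 difference, congenic minus S, of each member as reported (black bars), with 1 rat left out (crosses) and under other processing (circles). Adamtsl4, Adamts1, Adamts5, Adamts10 and Adamts4 stay left of 0 throughout, whereas Adamts16 runs from -0.72 to 0.47.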

How the data were processed

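The authors deposited linear intensities, 1 per probe set and array, and the submitters' processing notes name GCOS 1.4. Its settings and detection calls were not given in the sources used here. Each array had a trimmed mean of 500.2 (2% off either end), so the deposited intensities had been scaled before deposit.

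Of 31099 probe sets, 57 array controls were left out. Signals were floored at the 10th percentile of the table (12.3) before log2 transformation. Whether a probe set counted as above or below the median signal was decided on the mean of its log2 values. The median of those means corresponds to a signal of 165.4. The main probe sets of all 10 members lie on the same sides of 169.9, the median of mean signals. Symbols were updated through Entrez identifiers in the GRCr8 gene table: 20826 probe sets had 1 symbol, 436 several and 9780 none. All 31042 probe sets were fitted with limma 3.58.1 in R 4.3.3 (congenic minus S; moderated variances that follow an intensity trend, prior degrees of freedom 1.60), and p-values were adjusted over all of them by Benjamini-Hochberg at a threshold of 0.05. One fit of the whole table was used because members lay on both sides of a signal filter. Exact permutation tests were 2-sided. The procedure was also run on simulated data, with changes added only to probe sets above the median signal. Its outcome is not given here, and it does not cover the members below that median. Intensities carry no read depth; the number of arrays limits the precision, with a median standard error of 0.24 on the log2 scale.

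The labels give each array its own animal. The members and the gene lists, of which all 109 entries matched a current symbol, were chosen with earlier results of these data known. Beyond the members, the 2 genes of smallest unadjusted p in each pathway list are named where none passed, with others marked as named after their values were seen. Sequences are RefSeq's, and figures were drawn with matplotlib 3.10.9.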

Additional observations from a re-analysis of the deposited data

How the results depend on the processing

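The number of arrays, 3 a strain, limits the precision of each difference. Of 141 alternative values of the members' log2 differences, 127 kept their sign, and 0 passed adjusted p 0.05 in any fit. Adamts7 turned with the title number as a block (-0.0588) and ran from -0.0717 to 0.277 with 1 rat left out, below 0 without S replicate 2 (-0.0629) and without S replicate 3. Adamts9 turned after quantile normalisation (0.00779), median centring (0.0318) and cyclic loess (0.0126). Adamts15 turned under the same 3 scalings (0.0180, 0.0179 and 0.0181) and ran from -0.164 to 0.0350 with 1 rat left out, above 0 without S replicate 1 (0.0114) and without congenic replicate 1. Adamts16 turned with the title number as a block (0.0246) and without congenic replicate 1, and ran from -0.719 to 0.468 with 1 rat left out. Adamtsl2 ran from -0.283 to 0.0887 and turned without congenic replicate 1. Adamts1, Adamts4, Adamts5, Adamts10 and Adamtsl4 kept their sign in all fits run. The cause of these turns was not tested.

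The count of 2 members with unadjusted p below 0.05, Adamts4 and Adamtsl4, was 1 with the filter on low signals (Adamts5, with Adamts4 left out by the filter), 1 with quantile normalisation, median centring, cyclic loess or no intensity trend (Adamts4 in each), and 0 with the title number as a block. Adamtsl4 missed that level in all of these, and with the pseudocount, which had Adamts5 in its place. The count of members ran from 0 to 4 with 1 rat left out, while 1961 to 2695 of 31042 probe sets reached that level. The 2462 probe sets with unadjusted p below 0.05 became 1602 with the filter, which tests fewer. Members lower in congenic kidneys ran from 6 to 10 with 1 rat left out. Lower substrate genes were 6 with quantile normalisation and 5 with median centring. With median centring, lower inhibitor and clearance genes were 3 and lower maturation genes 3. Lower microfibril genes were 12 with the title number as a block. With 1 rat left out, lower microfibril genes ran from 7 to 11 and lower maturation genes from 3 to 5. The order of members by signal was the same by the median and after quantile normalisation. No paired analysis was possible because the labels give the groups no shared replicate numbers.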
